A study of Mus musculus with 20 samples.

Results

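The 39 genes described here encode collagen chains, and they were taken by symbol from a fixed list of collagen genes. The rule itself uses no measured value, but the members were chosen with earlier results of these data known. All 39 were found among the 55416 genes counted in mouse lumbar dorsal root ganglia, which hold the cell bodies of the neurons that carry touch, pain and temperature from the body. They fall into 11 fibrillar chains, 8 chains of the basement membrane and 20 others, of which 3 form beaded filaments, 8 are FACIT chains, 4 are transmembrane chains and 5 belong to none of these. FACIT stands for fibril-associated collagens with interrupted triple helices.

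Collagens are matrix proteins whose chains wind around each other into a stiff helix. Fibrillar collagens pack into the cables that give connective tissue its strength, type IV collagens form the sheet-like network of basement membranes, and the remaining classes coat, anchor or link these structures. In a ganglion the capsule and the tissue between nerve fibres contain fibroblasts and fibrils, while Schwann cells, satellite glia and blood vessels lie on basement membranes.

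RNA came from 10 adult C57Bl6 mice, 1 month after tamoxifen (TAM), and each animal gave a library after formalin injection and a noninjected library. By the sample titles 5 animals were inducible conditional knockouts (icKO) and 5 were controls. The icKO animals carried AdvCreERT2, a tamoxifen-dependent Cre recombinase, together with floxed Prdm12 alleles (P12 Fl/Fl), and the control animals carried P12 Fl/Fl with tamoxifen and no Cre named. Prdm12 encodes a transcriptional regulator of pain-sensing neurons, and formalin injection is a model of inflammatory pain. The series text names Rosa26CreERT2 in place of AdvCreERT2, so it is not settled whether recombination was limited to the cells that use the Adv promoter, chiefly sensory neurons, or possible in most cell types. The icKO animals 1, 2 and 3 and the control animals 1 and 2 were female, and icKO 4 and 5 and control 3, 4 and 5 were male.

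The deposited file of an animal also carries a genotype in its name, and this differs from the sample title for 4 animals, icKO 2, icKO 3, control 1 and control 4. Prdm12 had 23.7, 18.2 and 18.3 CPM (counts per 1000000 counts of the library) in icKO 1, 4 and 5, against 100.8, 84.2 and 97.3 CPM in control 2, 3 and 5, where both records name the same genotype. In the other animals it had 73.2 and 98.5 CPM in those labelled icKO 2 and 3, and 25.9 and 32.7 CPM in those labelled control 1 and 4, so that the targeted gene goes against the title there. Genotype was therefore compared mainly in the 6 animals with agreeing records, 3 of each genotype. The library labelled icKO 1 formalin held 2829 counts and was not used, and the other 19 held 11763893 to 22392635 counts. Nothing in the labels says how the ganglia of an animal were divided between its libraries. In tests on animal totals, p-values measure the spread between these animals. Tests within or between formalin and noninjected libraries had no animal term, so both libraries of an animal entered as separate units. Their p-values therefore do not measure the spread between animals alone.

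Collagen RNA in the ganglion was led by fibrillar chains. Levels of different genes are given as CPM per kb of transcript (mean over the 19 libraries), since longer transcripts collect more reads. Col1a2, a chain of type I collagen, the main fibril of most connective tissue, had the highest mean at 39.6 CPM per kb, with libraries between 21.96 and 98.96. Col5a3, a chain of type V collagen, which helps start fibrils, followed at 35.4 CPM per kb (17.74 to 46.34), and Col3a1, which makes type III collagen of stretchable tissues, at 30.6 CPM per kb (11.3 to 81.3). The order of these leading genes was not firm, because Col1a2 was above Col5a3 in only 7 of 19 libraries, and with the length of all exons together in place of a transcript Col5a3 ranked 1, Col3a1 ranked 2 and Col1a2 ranked 3. Col1a1, the partner of Col1a2, had 17.2 CPM per kb, Col11a1 of type XI collagen, known from cartilage fibrils, 14.4, and Col24a1, a fibrillar chain with an interrupted helix, 10.7.

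Among the other classes the FACIT chain Col16a1 was the highest at 20.2 CPM per kb, and Col28a1, which in the mouse is known from peripheral nerve, had 16.2. The beaded filament chains Col6a2 and Col6a1 had 15.5 and 14.6 CPM per kb. In the basement membrane class Col4a1 and Col4a2, whose products form the common type IV network, had 11.2 and 9.02 CPM per kb, ahead of Col15a1 with 8.01 and Col18a1, the source of endostatin, with 5.31. At the other end Col4a6, a type IV chain, had 0.0842 CPM per kb, Col17a1, a transmembrane chain of skin hemidesmosomes, 0.055, and Col9a1, a cartilage FACIT chain, 0.0424. Going down the order, neighbouring genes mostly exchanged places between libraries, and only Col23a1 over Col18a1 and Col13a1 over Col4a6 held in 19 of 19 libraries, Col23a1 and Col13a1 being transmembrane chains. On the CPM scale, 36 of the 39 members averaged at least 1 CPM, 27 at least 10, 13 at least 50 and 6 at least 100.

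**Figure D1:**
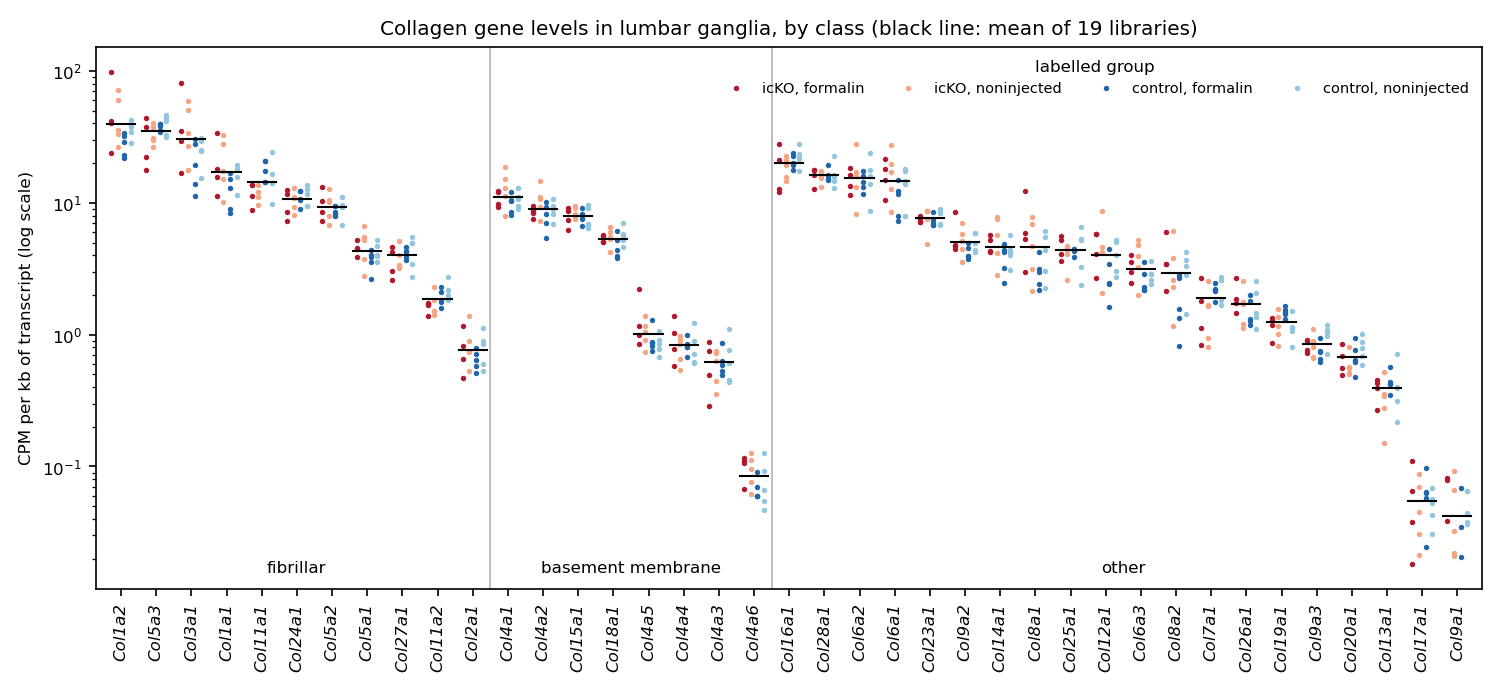
Level of each of the 39 collagen genes in the 19 libraries, in CPM per kb of transcript on a log axis, by class; each point is a library and the black line is the mean. Col1a2, Col5a3 and Col3a1 lead, at means of 39.6, 35.4 and 30.6, and libraries in which Col9a1 had no count are not drawn.

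The classes took steady shares of the length-scaled collagen signal. Fibrillar chains made up 49.5% to 62.8% of it (median 52.7%), basement membrane chains 8.9% to 14.4% (median 11.5%) and the others 28.3% to 38.8% (median 35.5%). The summed level of the 39 genes ran from 233.7 CPM per kb in the icKO 4 noninjected library to 448.2 in the icKO 5 formalin library, and that library also had the highest fibrillar and the lowest basement membrane share. Some members moved little between libraries, with a coefficient of variation over all 19 of 13.2% for Col23a1, 13.6% for Col15a1 and 14.4% for Col28a1. Others moved much more, with 56.1% for Col3a1, 54.7% for Col8a1, a chain of the hexagonal networks of type VIII collagen, 47.6% for Col1a2 and 42.0% for Col1a1.

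Beside the label of connective tissue, 6 fibroblast markers (Pdgfra, Dpt, Dcn, Lum, Pi16 and Clec3b) were read, and none of them was under 1 CPM in every library. The same held for the neuron, skeletal muscle and adipocyte markers, so it does not show which cells the collagen RNA came from. The summed level of the fibroblast markers was 1106, 2025, 1355, 1873 and 3722 CPM in icKO 1 to 5, against 1210.0, 1586, 2092, 1368 and 1230.0 CPM in control 1 to 5, so that icKO 5 was the highest animal and the groups overlapped. Its formalin library, at 5077 CPM, was the highest of all. The sum is mostly Dcn, which made up 86.5% to 89.3% of it, and the other 5 markers together had 131.7, 237.7, 183.1, 209.0 and 449.3 CPM in icKO 1 to 5, against 161.9, 169.3, 242.6, 146.0 and 156.5 CPM in control 1 to 5. The weaker markers did not all follow: control 1, with the lowest sum of the controls, had their highest Pi16 (42.6 CPM), Clec3b (14.8) and Dpt (5.41), while control 3, with the highest sum, had their lowest Pi16 (17.9). Over the 10 animals, 26 of 38 members with enough counts had a positive correlation with this sum on the log2 scale, as did 49.2% of all 19441 genes tested by label, with a median r of 0.30 over the members and -0.0126 over all genes. Against the 5 markers without Dcn, 27 of 38 were positive. After Benjamini-Hochberg adjustment over the 38 members, Pearson's r passed for Col9a2, a FACIT chain (r = 0.931, permutation adjusted p = 0.00608; rho = 0.867, adjusted p = 0.0579), and for Col4a5, a type IV chain known from the kidney filter (r = 0.92, permutation adjusted p = 0.0215; rho = 0.855, adjusted p = 0.0579). Without icKO 5 and control 3, the animals farthest from the median of the sum, r was 0.823 for Col9a2 and 0.78 for Col4a5 and neither passed over the remaining 8 animals (permutation adjusted p = 0.43 for each). Over all genes, 0.658% had an r with the sum as high as that of Col4a5 or higher. The animals were of both genotypes and both sexes, and the relation was not computed within a genotype or a sex.

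The relation to the fibroblast markers differed in sign among highly expressed members. Col1a2 had r = 0.841 with the marker sum (permutation adjusted p = 0.0835), while Col5a3 had -0.303, Col16a1 -0.464 and Col28a1 -0.00359, none of which passed. Collagen extremes also gathered in a few animals: icKO 5 was the highest animal for 13 of the 39 members, icKO 2 for 9 and control 2 for 9, while icKO 4 was the lowest for 13 and control 5 for 14. In bulk RNA, fewer cells of a type and less RNA per cell cannot be told apart, here and in every comparison that follows.

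**Figure D2:**
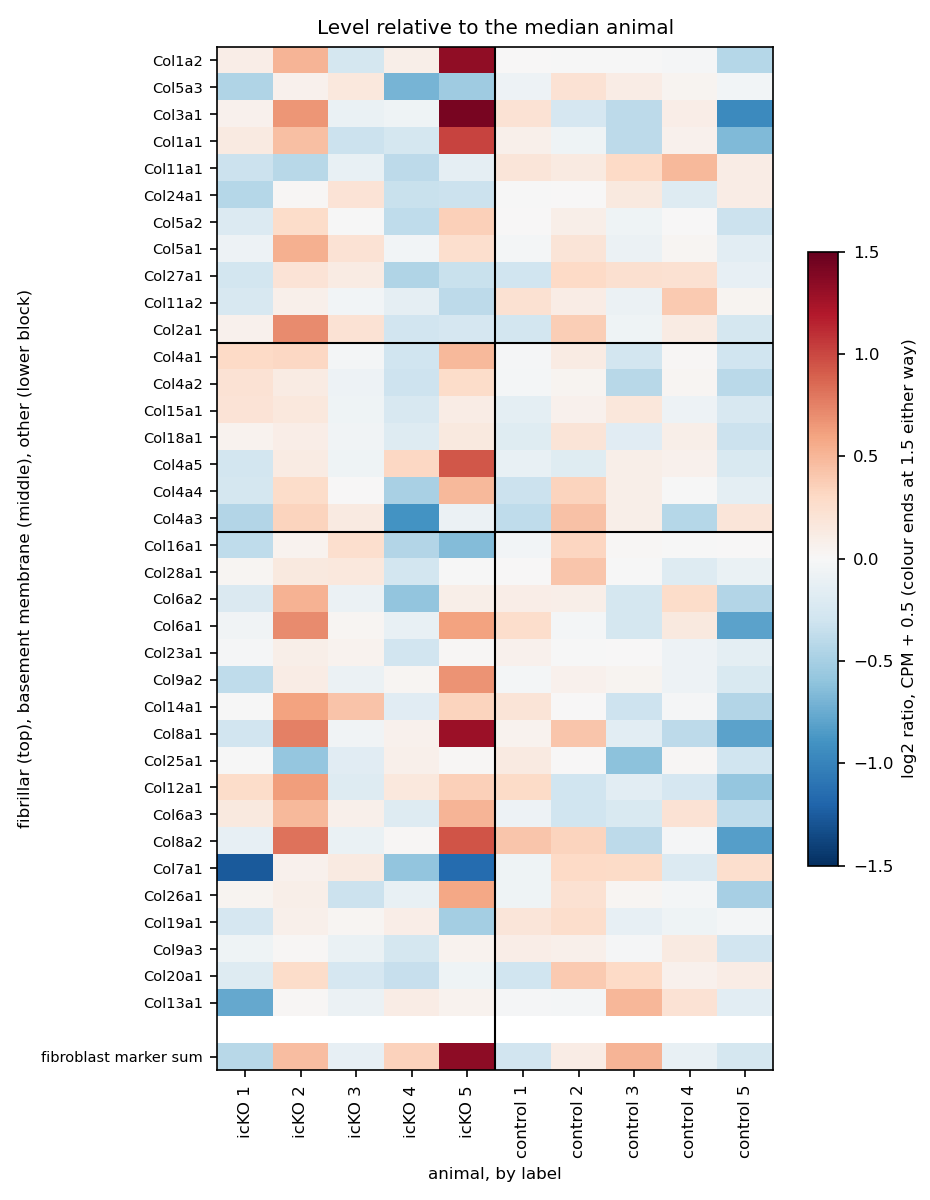
Level of the 36 collagen genes that average at least 1 CPM in each of the 10 animals (libraries of an animal summed), as the log2 ratio to the median animal, with the summed fibroblast markers as a further line. The fibrillar genes Col1a1, Col1a2 and Col3a1 are high in icKO 5, the animal with the highest marker sum of 3722 CPM.

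Between genotypes, 4 collagen genes were lower in icKO than in control ganglia in the animals with agreeing records, and none was higher. The 4 were Col7a1, Col5a3, Col16a1 and Col24a1, and each of them was lower in all 3 icKO animals than in all 3 control animals. Of the 39 members, 37 passed the filter on low counts and were tested. Across all 19063 genes tested 0.897% were called, 0.325% as lower and 0.572% as higher. At an unadjusted p under 0.05 the counts were 11 of 37 members and 19.1% of all genes.

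Col7a1 encodes the anchoring fibrils that fix the skin's basement membrane to the dermis. It had 7.54, 12.2 and 8.12 CPM in icKO 1, 4 and 5, against 23.2, 23.0 and 22.5 CPM in control 2, 3 and 5. The icKO values were all well under the narrow range of the controls, averaging 9.29 ± 2.56 CPM in icKO and 22.9 ± 0.379 CPM in control animals (SD, n = 3 each). The log2 fold change was -1.31 (SE 0.175; edgeR quasi-likelihood test, Benjamini-Hochberg adjusted p = 0.032).

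Col5a3, a minor chain of type V collagen, had 165.6, 139.2 and 156.9 CPM in icKO 1, 4 and 5, against 263.2, 244.0 and 220.7 CPM in control 2, 3 and 5. Its groups were apart, with means of 153.9 ± 13.4 CPM in icKO and 242.6 ± 21.3 CPM in control animals (SD, n = 3 each) and a log2 fold change of -0.67 (SE 0.0905; edgeR adjusted p = 0.032). Col16a1, a FACIT chain found at cell surfaces and along fibrils, had 83.1, 79.2 and 68.8 CPM in icKO 1, 4 and 5, against 135.5, 109.6 and 108.2 CPM in control 2, 3 and 5. Control 2 was the highest of these animals and the groups did not overlap, with means of 77.0 ± 7.36 CPM in icKO and 117.8 ± 15.4 CPM in control animals (SD, n = 3 each) and a log2 fold change of -0.62 (SE 0.0843; edgeR adjusted p = 0.032).

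Col24a1 had 58.3, 62.5 and 63.0 CPM in icKO 1, 4 and 5, against 78.8, 87.4 and 85.1 CPM in control 2, 3 and 5. Both groups were tight and apart, at 61.2 ± 2.58 CPM in icKO and 83.8 ± 4.48 CPM in control animals (SD, n = 3 each), with a log2 fold change of -0.46 (SE 0.0697; edgeR adjusted p = 0.0409). Without the icKO 5 formalin library 7 members were called, where 7.46% of all genes were called. These 4, Col11a1 and Col27a1 were lower in that fit and Col12a1 was higher. The calls depend on single animals, however, since 0 members passed without control 3 (0.0423% of all genes) or without control 5 (0.155%), 1 passed without icKO 4 (Col7a1; 0.181%) and 0 passed when the sex term was dropped (0.179%), with every fold change still below 0. With all animals grouped by the deposited names, 0 members passed, where 1.08% of all genes were called.

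The animals with differing records give a further view of the same genes. Col7a1 had 19.6 and 20.6 CPM in the animals labelled icKO 2 and 3, and 18.0 and 16.2 CPM in those labelled control 1 and 4, and so lay above every agreeing icKO animal and below every agreeing control in all 4. Col5a3 had 236.7 and 252.4 CPM in those labelled icKO and 214.5 and 232.7 CPM in those labelled control. Col16a1 had 112.2 and 129.1 CPM in those labelled icKO and 105.2 and 107.8 CPM in those labelled control, and Col24a1 had 79.9 and 90.9 CPM in those labelled icKO and 78.5 and 69.0 CPM in those labelled control. For each of the 4 genes both animals labelled control were below both animals labelled icKO here, the same order as by the deposited names, but they stayed above the agreeing icKO animals.

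**Figure D3:**
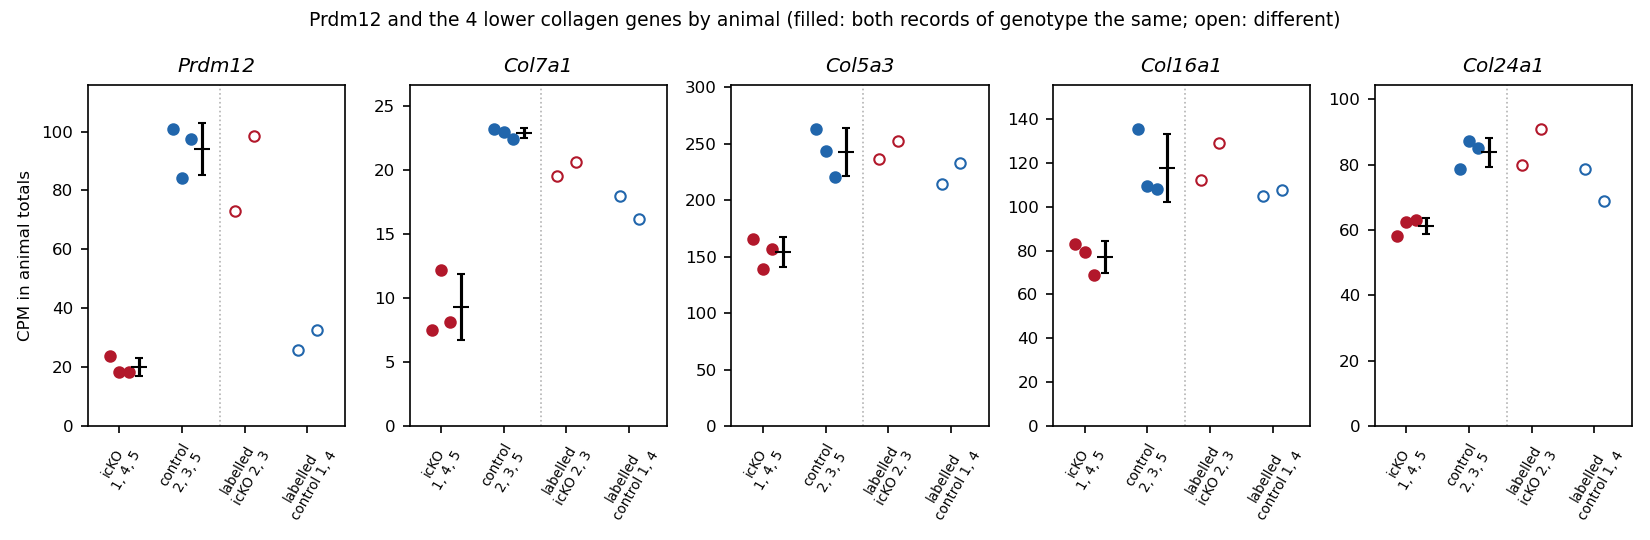
Prdm12 and the 4 collagen genes that were lower in icKO, in CPM per animal, icKO left of control; filled points are animals whose title and deposited name give the same genotype, open points are animals for which they differ, and the bar and whiskers are the mean ± SD of the filled points. Col7a1 averaged 9.29 CPM in filled icKO and 22.9 CPM in filled control animals, while the open points of both labels lie above every filled icKO point in the 4 collagen genes.

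The promoters of these 4 genes are shown because the genes were lower together. Each is the 250 bases before the transcription start in RefSeq on GRCm38.p6, 5′ to 3′ on the gene's strand, at chr9:108953336-108953585 (+), chr9:20815068-20815317 (-), chr4:130047590-130047839 (+) and chr3:145292222-145292471 (+). Capitals mark the CCAAT motif and the GC box, spelled GGGCGG, each on either strand and with overlaps allowed. The TATA box, spelled TATAAA, was searched as well.
Col7a1: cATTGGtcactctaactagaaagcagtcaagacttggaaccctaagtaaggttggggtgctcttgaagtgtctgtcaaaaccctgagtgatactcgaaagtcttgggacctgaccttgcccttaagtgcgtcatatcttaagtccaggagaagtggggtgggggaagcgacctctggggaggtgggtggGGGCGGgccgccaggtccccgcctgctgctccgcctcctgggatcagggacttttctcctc
Col5a3: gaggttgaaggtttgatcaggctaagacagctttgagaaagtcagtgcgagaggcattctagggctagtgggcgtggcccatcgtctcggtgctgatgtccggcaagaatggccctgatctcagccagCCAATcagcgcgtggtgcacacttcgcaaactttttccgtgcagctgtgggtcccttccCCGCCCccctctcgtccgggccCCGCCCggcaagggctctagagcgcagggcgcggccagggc
Col16a1: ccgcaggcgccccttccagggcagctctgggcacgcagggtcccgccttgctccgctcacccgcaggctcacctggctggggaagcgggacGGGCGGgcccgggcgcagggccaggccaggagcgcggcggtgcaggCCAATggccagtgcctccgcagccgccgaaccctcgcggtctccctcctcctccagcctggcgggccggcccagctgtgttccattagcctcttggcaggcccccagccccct
Col24a1: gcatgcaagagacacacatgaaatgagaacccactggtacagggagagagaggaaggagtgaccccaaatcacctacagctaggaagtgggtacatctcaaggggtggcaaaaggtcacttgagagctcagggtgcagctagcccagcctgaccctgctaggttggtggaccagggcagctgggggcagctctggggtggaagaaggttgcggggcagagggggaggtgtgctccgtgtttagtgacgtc
Col7a1 and Col16a1 each hold 1 CCAAT motif and 1 GC box, Col5a3 holds 1 CCAAT motif and 2 GC boxes, and Col24a1 holds neither, while the TATA box is in none of the 4. Their GC content was 56.4% for Col7a1, 62.8% for Col5a3, 75.6% for Col16a1 and 58.0% for Col24a1. Of all 32851 promoters in the table, 33.8% hold the CCAAT motif, 32.7% the GC box and 12.4% the TATA box, and of the 34 promoters matched to 31 of the members, 35.3%, 55.9% and 11.8% do. None of the 3 motifs is in all 4 windows.

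Among members that did not pass, Col12a1, a FACIT chain of tendon and ligament, had 54.5, 50.3 and 57.6 CPM in icKO 1, 4 and 5, against 36.6, 40.1 and 29.8 CPM in control 2, 3 and 5 (log2 0.60, SE 0.124; edgeR adjusted p = 0.0782). Col11a1 had 85.7, 81.8 and 98.1 CPM in the icKO animals, against 117.8, 132.6 and 115.8 CPM in the controls (log2 -0.47, SE 0.100; edgeR adjusted p = 0.0804). Col27a1, a fibrillar chain of developing cartilage, had 25.0, 22.1 and 23.9 CPM in icKO animals, against 37.4, 35.9 and 27.7 CPM in controls (log2 -0.51, SE 0.118; edgeR adjusted p = 0.093). In each of these 3 the groups did not overlap. Counted over the 37 tested members, 9 were lower and 5 were higher with no overlap, where 11.6% of all tested genes were lower, 10.7% were higher and 22.4% were either in that way.

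The abundant interstitial collagens had positive fold changes that did not pass. Col3a1 had 154, 140 and 392 CPM in icKO 1, 4 and 5, against 123, 112 and 75.1 CPM in control 2, 3 and 5 (log2 1.12, SE 0.531; edgeR adjusted p = 0.344). Col1a2 had 195, 193 and 457 CPM in the icKO animals, against 180, 180 and 135 CPM in the controls (log2 0.73, SE 0.416; edgeR adjusted p = 0.405). In both genes icKO 5 was far above the other animals, and it was also the animal with the most fibroblast marker RNA.

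By class, the median log2 fold change was -0.21 over the 11 fibrillar chains, with 2 lower, 0.22 over the 8 basement membrane chains, with none called, and 0.08 over the 18 others tested, with 2 lower. Over all 37 it was 0.05, with 20 above 0, and over all genes tested it was -0.0041. In the basement membrane class Col4a3 and Col4a6, chains with narrower tissue use than Col4a1, had the largest folds, at -0.74 (SE 0.250; edgeR adjusted p = 0.182) and 0.80 (SE 0.312; edgeR adjusted p = 0.227).

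Marker genes of other cells moved beside these values. The summed fibroblast markers were 1106, 1873 and 3722 CPM in icKO 1, 4 and 5, against 1586, 2092 and 1230.0 CPM in control 2, 3 and 5, and 6 of 6 had positive fold changes with none called (median log2 0.65). Skeletal muscle markers summed to 6.4, 18.8 and 564 CPM in the icKO animals, against 11.5, 13.4 and 15.1 CPM in the controls, and erythroid markers to 174, 925 and 1001 CPM in the icKO animals, against 137, 148 and 179 CPM in the controls. Schwann cell markers were 4173, 3759 and 4339 CPM in icKO and 4122, 3858 and 4003 CPM in control animals, and neuron markers 6236, 4969 and 4201 CPM in icKO and 4401, 4534 and 4790.0 CPM in control animals. Cartilage and bone markers summed to 46.4, 30.3 and 43.8 CPM in the icKO animals, against 27.3, 25.1 and 21.5 CPM in the controls, with no overlap and none called of the 4 tested (Bglap was under 1 CPM in every library). Adipocyte markers summed to 163, 13.7 and 50.7 CPM in the icKO animals, against 15.0, 12.1 and 17.8 CPM in the controls (4 of 4 positive, none called; median log2 1.84). The part of these cells in the collagen values was not tested.

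**Figure D4:**
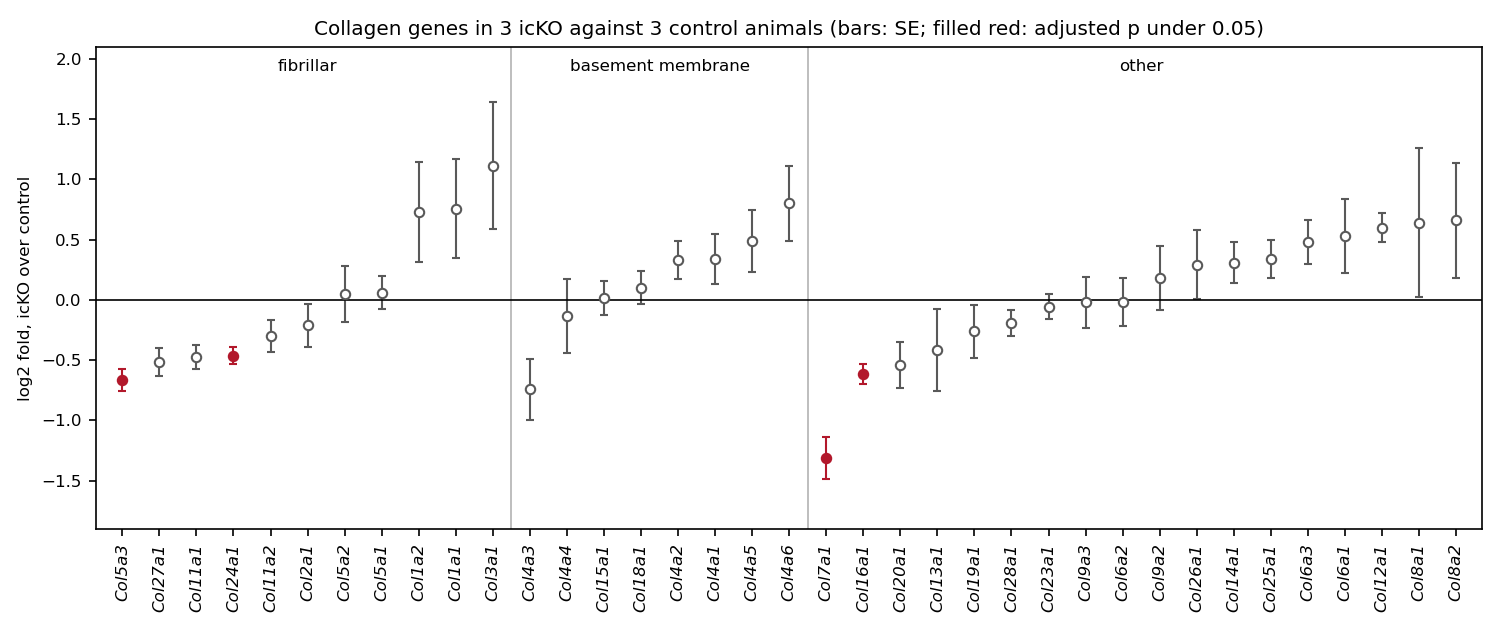
Log2 fold change, icKO over control, of the 37 tested collagen genes in the 6 animals with agreeing records, set out by class. Points are edgeR estimates, bars are ± 1 standard error, and filled red points are the genes with adjusted p under 0.05. Col7a1 (-1.31), Col5a3 (-0.67), Col16a1 (-0.62) and Col24a1 (-0.46) have short error bars, while Col3a1 and Col8a1 have the wide ones.

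Within noninjected ganglia of the same animals, Col7a1 and Col16a1 were lower in icKO, 2 of 37 members, where 0.877% of all tested genes were called lower and 3.83% higher, 4.7% in all. Col7a1 had 7.42, 15.3 and 8.78 CPM in icKO 1, 4 and 5 and 24.0, 25.5 and 24.1 CPM in control 2, 3 and 5 (log2 -1.23, SE 0.212; edgeR adjusted p = 0.0142). Col16a1 had 81.8, 100.3 and 76.9 CPM in icKO and 146.4, 122.8 and 111.5 CPM in control libraries (log2 -0.53, SE 0.120; edgeR adjusted p = 0.03). The groups did not overlap in either gene, with icKO 4 nearest to the controls. Over the 37 members, 7 were lower and 1 higher with no overlap, where 14.2% of all tested genes were lower and 14.6% higher in that way, 28.9% in all. Col5a3 (log2 -0.47; edgeR adjusted p = 0.0601) and Col24a1 (log2 -0.42; edgeR adjusted p = 0.0609) missed the threshold. No member passed without icKO 1, control 2, control 3 or control 5, where 0.093% to 0.418% of all genes were called, while 5 passed without icKO 4 (11.2% of all genes), 4 without icKO 5 (7.12%) and 5 without the icKO 5 formalin library (11.7%). Of these calls, only that of Col6a3 without icKO 4 was higher. Beside these values, neuron markers summed to 6140.0, 5511 and 5044 CPM in icKO and 4317, 4418 and 5048 CPM in control libraries (5 of 5 positive, 1 called higher). Erythroid markers summed to 171, 511 and 589.8 CPM in icKO and 109.8, 156 and 224 CPM in control libraries (4 of 4 positive, none called; median log2 1.34), and adipocyte markers to 160.5, 8.06 and 50.3 CPM in icKO and 8.12, 10.9 and 26.7 CPM in control libraries (median log2 1.82). Cartilage and bone markers had 45.7, 33.6 and 43.2 CPM in icKO and 30.2, 29.0 and 23.3 CPM in control libraries (1 of 4 tested called higher). Satellite glia markers had 754.9, 654.5 and 718.7 CPM in icKO and 895.1, 1247 and 765.7 CPM in control libraries, with no overlap. Fold changes were negative for 4 of 5 Schwann cell, 4 of 4 macrophage, 3 of 4 perineurial and 3 of 6 fibroblast markers. For 5 of 5 endothelium and 4 of 5 pericyte and smooth muscle markers they were positive, and none in these sets was called. The part of these cells in the collagen values was not tested.

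After formalin, with 2 icKO and 3 control libraries, all 4 genes were lower again, where 2.81% of all tested genes were called lower and 6.33% higher, 9.14% in all. These libraries belong to animals of the summed comparison, so they do not test it independently. Col5a3 had 108.6 and 137.0 CPM in icKO 4 and 5 and 242.4, 212.2 and 241.1 CPM in control 2, 3 and 5 (log2 -0.89, SE 0.157; edgeR adjusted p = 0.00604). Col7a1 had 10.3 and 7.72 CPM in icKO and 22.6, 19.9 and 20.7 CPM in control libraries (log2 -1.27, SE 0.249; edgeR adjusted p = 0.0114). In neither gene did the groups overlap. Col16a1 had 66.1 and 63.4 CPM in icKO and 124.3, 93.2 and 104.5 CPM in control libraries (log2 -0.66, SE 0.141; edgeR adjusted p = 0.0146). Col24a1 had 52.3 and 61.2 CPM in icKO and 64.1, 75.2 and 87.4 CPM in control libraries (log2 -0.48, SE 0.137; edgeR adjusted p = 0.0484), with icKO 5 close to control 2. Only Col5a3 passed without control 3 (1.82% of all genes called) or without control 5 (0.803%). Without icKO 4 or without icKO 5 a single icKO formalin library was left, and the members called there went in both directions. Col24a1 also missed the threshold without control 2 (edgeR adjusted p = 0.0611) or icKO 4, and Col7a1 did so without the icKO 5 formalin library.

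Most other members had positive fold changes after formalin, and none of them passed in the main fit. DESeq2 called Col12a1, Col3a1 and Col8a2 higher, where 12% of all genes were called. With only the formalin libraries fitted Col12a1, Col6a1, Col8a1 and Col8a2 were called higher (5.48% of all genes), and with no sex term Col4a5 was (12.3%). The median over the 37 was 0.34 on the log2 scale with 25 above 0, against -0.0014 over all genes. Col3a1 had 165 and 452 CPM in icKO 4 and 5 and 108, 76.8 and 62.9 CPM in control 2, 3 and 5 (log2 1.97; edgeR adjusted p = 0.114). Col8a2, a type VIII chain, had 14.8 and 26.1 CPM in icKO and 11.7, 3.54 and 5.8 CPM in control libraries (log2 1.85; edgeR adjusted p = 0.0966). Col4a5 had 7.55 and 14.45 CPM in icKO and 4.91, 5.7 and 5.74 CPM in control libraries (log2 0.90; edgeR adjusted p = 0.0728). The groups did not overlap for 15 members that were higher and 8 that were lower, where 22.5% of all tested genes were higher and 21.7% lower in that way, 44.2% in all. The summed fibroblast markers stood at 2269 and 5077 CPM in these icKO libraries and 1308, 1549 and 1197 CPM in these control libraries, and the skeletal muscle markers at 18 and 1040.0 CPM in the icKO and 8.31, 16.5 and 11.1 CPM in the control libraries. Erythroid markers stood at 1176 and 1368 CPM in the icKO and 174, 136.5 and 131 CPM in the control libraries, with 4 of 4 called higher (median log2 2.84). Macrophage markers stood at 77.2 and 153 CPM in the icKO and 72.3, 64.1 and 44.8 CPM in the control libraries (4 of 4 positive, none called; median log2 0.96). Cartilage and bone markers stood at 28.1 and 45.2 CPM in the icKO and 24.2, 20.3 and 19.5 CPM in the control libraries, with 2 of 4 tested called higher. Perineurial markers stood at 184.1 and 308.7 CPM in the icKO and 196.0, 158.4 and 155.5 CPM in the control libraries. Satellite glia markers stood at 791.0 and 1138 CPM against 738.7, 998.9 and 757.3 CPM. In both sets 3 of 4 were positive and 1 was called higher, as was 1 of 3 tested markers of central nervous system glia. Neuron markers stood at 4625 and 3577 CPM in the icKO and 4592, 4636 and 4513 CPM in the control libraries. Of these 5 markers 4 had negative fold changes, with none called. The part of all these cells in the fold changes was not tested.

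When all 10 animals were grouped by their sample titles, no member passed in edgeR's quasi-likelihood test, where 0% of all 19441 genes were called. At an unadjusted p under 0.05 there were 9 of 38 members, and 9.34% of all genes, and DESeq2 called 1 member, Col11a1, and 0.382% of all genes. Col11a1 had 85.7, 80.2, 99.7, 81.8 and 98.1 CPM in icKO 1 to 5, against 121.7, 117.8, 132.6, 151.2 and 115.8 CPM in control 1 to 5. It was the only member whose groups did not overlap, where 1.27% of all tested genes did not and 0.844% were lower in that way, and its log2 fold change was -0.50 (SE 0.0938; edgeR adjusted p = 0.399). Prdm12 itself had a log2 fold change of -0.93 in this grouping (edgeR adjusted p = 0.663). With all animals grouped by the deposited names, no member passed, where 1.08% of all 19441 genes were called. The fold changes there were -0.79 for Col7a1 (edgeR adjusted p = 0.144), -0.40 for Col5a3 (edgeR adjusted p = 0.174), -0.38 for Col16a1 (edgeR adjusted p = 0.154) and -0.34 for Col24a1 (edgeR adjusted p = 0.0822).

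Chains that assemble into the same molecule or share a promoter tended to vary together over the 10 animals. Of 9 such pairs, 8 passed a permutation test of Pearson's r on log2 CPM with Benjamini-Hochberg adjustment over the 9. The members at large also varied together, since the 694 other pairs of tested members had a median r of 0.309, against 0.813 over the 9 partner pairs, and 21.8% of them had an r at or above 0.624, the lowest among the 8. Col4a1 and Col4a2, which lie head to head so that their 300-base promoter windows share 78 bases, had r = 0.963 and rho = 0.939 (permutation adjusted p = 0.00027 for r and 0.00171 for rho), and r = 0.974 without the 2 animals farthest from the median, icKO 2 and icKO 5. The type I chains Col1a1 and Col1a2 had r = 0.93 and rho = 0.818 (permutation adjusted p = 0.00102 and 0.0107), but r = 0.76 without icKO 5 and control 5 (permutation adjusted p = 0.0806). Col8a1 and Col8a2 had r = 0.922 (permutation adjusted p = 0.00063) and 0.835 without the 2 farthest animals (permutation adjusted p = 0.0475). Only Col4a1 with Col4a2 and Col8a1 with Col8a2 passed over the 8 animals left. Col6a1 and Col6a3 had r = 0.856 and, without the 2 farthest animals, 0.781 (permutation adjusted p = 0.00198 and 0.0676), Col5a1 and Col5a2 0.813 and 0.696 (permutation adjusted p = 0.00529 and 0.102), and Col6a1 and Col6a2 0.775 and 0.596 (permutation adjusted p = 0.0138 and 0.16). The other type IV pairs were weaker than Col4a1 with Col4a2, with 0.729 and 0.486 for Col4a3 and Col4a4 (permutation adjusted p = 0.0241 and 0.251) and 0.624 and 0.35 for Col4a5 and Col4a6 (permutation adjusted p = 0.0425 and 0.377). Col11a1 and Col11a2 had r = 0.601 (permutation adjusted p = 0.0655). The library kit does not mark strand, and Col4a1 and Col4a2 overlap in exons on opposite strands in GENCODE M21, so reads there cannot be told apart.

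Genes that make, cut, bind or accompany collagen gave 2 calls between the agreeing animals, where 0.897% of all genes were called and 19.1% had an unadjusted p under 0.05. Of 30 synthesis and processing genes none passed (3 at an unadjusted p under 0.05; median log2 0.06), and of 12 tested breakdown genes 1 was higher (median 0.44). None of 8 tested receptors (median 0.16) and none of 11 fibril-associated matrix genes (median 0.54) passed, with 1 unadjusted call each, and of 11 basement membrane companions 1 was lower (median 0.10). Timp2, an inhibitor of matrix metalloproteinases, had 1005, 793 and 781 CPM in icKO 1, 4 and 5, against 542, 537 and 535 CPM in control 2, 3 and 5 (log2 0.66, SE 0.104; edgeR adjusted p = 0.045). Agrn, a basement membrane proteoglycan, had 171.5, 167.9 and 155.8 CPM in icKO animals, against 260.9, 214.6 and 221.8 CPM in controls (log2 -0.50, SE 0.084; edgeR adjusted p = 0.0486). Neither gene's groups overlapped. Both missed the threshold without control 3, control 5 or icKO 4, and Agrn also without icKO 5, at edgeR adjusted p between 0.0647 and 0.269.

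Within noninjected ganglia Timp2 (log2 0.79; edgeR adjusted p = 0.0111), Pcolce2, an enhancer of procollagen cleavage (log2 0.67; edgeR adjusted p = 0.0178), and the collagen receptor kinase Ddr1 (log2 0.57; edgeR adjusted p = 0.0289) were higher in icKO. After formalin, fibronectin Fn1 had 186 and 115 CPM in icKO 4 and 5 and 52.8, 26.7 and 31.8 CPM in control 2, 3 and 5 (log2 2.14; edgeR adjusted p = 0.0169). The collagen uptake receptor Mrc2 (log2 1.37; edgeR adjusted p = 0.0412), Timp4 (log2 1.47; edgeR adjusted p = 0.0372), Pcolce2 (log2 0.51; edgeR adjusted p = 0.0442) and the procollagen protease Tll1 (log2 0.65; edgeR adjusted p = 0.0481) were also higher, and Agrn was lower (log2 -0.69; edgeR adjusted p = 0.0165). The noninjected calls were 1 of 30 synthesis and processing, 1 of 12 breakdown and 1 of 8 receptor genes. Each of the other 2 lists had 0 of 11, and 4.7% of all genes were called. The formalin calls were 2 of 30 synthesis and processing, 2 of 12 breakdown and 0 of 8 receptor genes. The fibril-associated matrix and the basement membrane companions had 1 of 11 each, and 9.14% of all genes were called. None of the genes named here passed with all animals by label. The 3 noninjected calls were each lost without icKO 1, control 2, control 3 or control 5, and the 6 formalin calls were each lost without control 3 or control 5, with the direction kept. Without icKO 4 the calls of Fn1, Mrc2, Timp4, Pcolce2 and Tll1 were lost too, without control 2 those of Mrc2, Timp4, Pcolce2 and Tll1, and without icKO 5 those of Agrn and Tll1.

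Formalin injection itself changed no collagen gene past the threshold. In the comparison of 9 formalin with 10 noninjected libraries, 0 of 37 members passed in edgeR's test, 0 had an unadjusted p under 0.05 and DESeq2 called 0, where edgeR called 0% of all 17671 genes and 2.91% had an unadjusted p under 0.05. The fold changes leaned below 0, with 8 of 37 above it and a median of -0.08 on the log2 scale, against -0.0019 over all genes. Col4a2 had the smallest p, with a lowest, median and highest value of 35.1, 53.7 and 65.2 CPM in formalin and 44.4, 60.8 and 94.0 CPM in noninjected libraries (log2 -0.23, SE 0.123; edgeR adjusted p = 0.929). Col9a3, a FACIT chain of cartilage, came next with 1.9, 2.29 and 2.87 CPM in formalin and 2.02, 2.86 and 3.62 CPM in noninjected libraries (log2 -0.22, SE 0.129; edgeR adjusted p = 0.929). Both groups overlapped widely in each gene.

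In labelled icKO animals 0 of 37 members passed (0 unadjusted, 0 by DESeq2; edgeR called 0% of all genes and 5.29% had an unadjusted p under 0.05), and Col4a2 again had the smallest p, with 61.0, 53.7, 48.7 and 55.6 CPM in formalin libraries of icKO 2 to 5 and 68.5, 72.1, 60.2, 47.2 and 94.0 CPM in noninjected libraries of icKO 1 to 5 (log2 -0.31, SE 0.179; edgeR adjusted p = 0.687). In labelled control animals 0 passed (2 unadjusted, 0 by DESeq2; edgeR called 0% of all genes and 3.23% had an unadjusted p under 0.05), and 6 of 37 fold changes were above 0 with a median of -0.14. Col9a3 had 2.87, 2.3, 1.9, 2.25 and 2.0 CPM in formalin and 2.98, 3.31, 3.21, 3.62 and 2.19 CPM in noninjected libraries of control 1 to 5 (log2 -0.43, SE 0.177; edgeR adjusted p = 1). Col19a1, a FACIT chain of muscle and brain, had 7.06, 6.57, 6.39, 6.15 and 5.6 CPM in formalin and 4.89, 6.44, 3.43, 4.51 and 4.81 CPM in noninjected libraries of control 1 to 5 (log2 0.41, SE 0.167; edgeR adjusted p = 1). Col9a3 was lower and Col19a1 higher in the formalin library of every control animal, though the groups overlapped.

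The interstitial collagens differed in direction between animals. Col1a1, Col1a2 and Col3a1 each had a higher formalin than noninjected level in icKO 4 and icKO 5 and a lower one in icKO 2, icKO 3 and all 5 control animals. For Col1a2 the log2 difference was -0.59, -0.48, 0.67 and 0.47 in icKO 2 to 5 and -0.22, -0.41, -0.86, -0.04 and -0.37 in control 1 to 5, with 0.5 CPM added before the logarithm. The pairing of the icKO 3 libraries is uncertain, as described under processing. The fibroblast marker sum of icKO 4 was 2269 CPM in its formalin and 1219 CPM in its noninjected library, and that of icKO 5 was 5077 CPM in its formalin and 2206 CPM in its noninjected library. The part of these cells in the differences was not tested. By Prdm12 the labelled groups are mixed, since icKO 2, icKO 3, control 1 and control 4 go against their titles. Formalin was not tested within groups formed by the deposited names. No member passed the test of whether formalin acted differently in labelled icKO and control animals (0 of 37 by edgeR, 0 unadjusted, 0 by DESeq2; edgeR called 0% of all genes and 5.22% had an unadjusted p under 0.05). Col8a2 had the smallest p there, with log2 formalin differences of -0.80, -0.26, 1.47 and 0.64 in icKO 2 to 5 and -0.56, -0.43, -1.65, -1.04 and -0.09 in control 1 to 5 (log2 1.12, SE 0.587; edgeR adjusted p = 0.786).

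**Figure D5:**
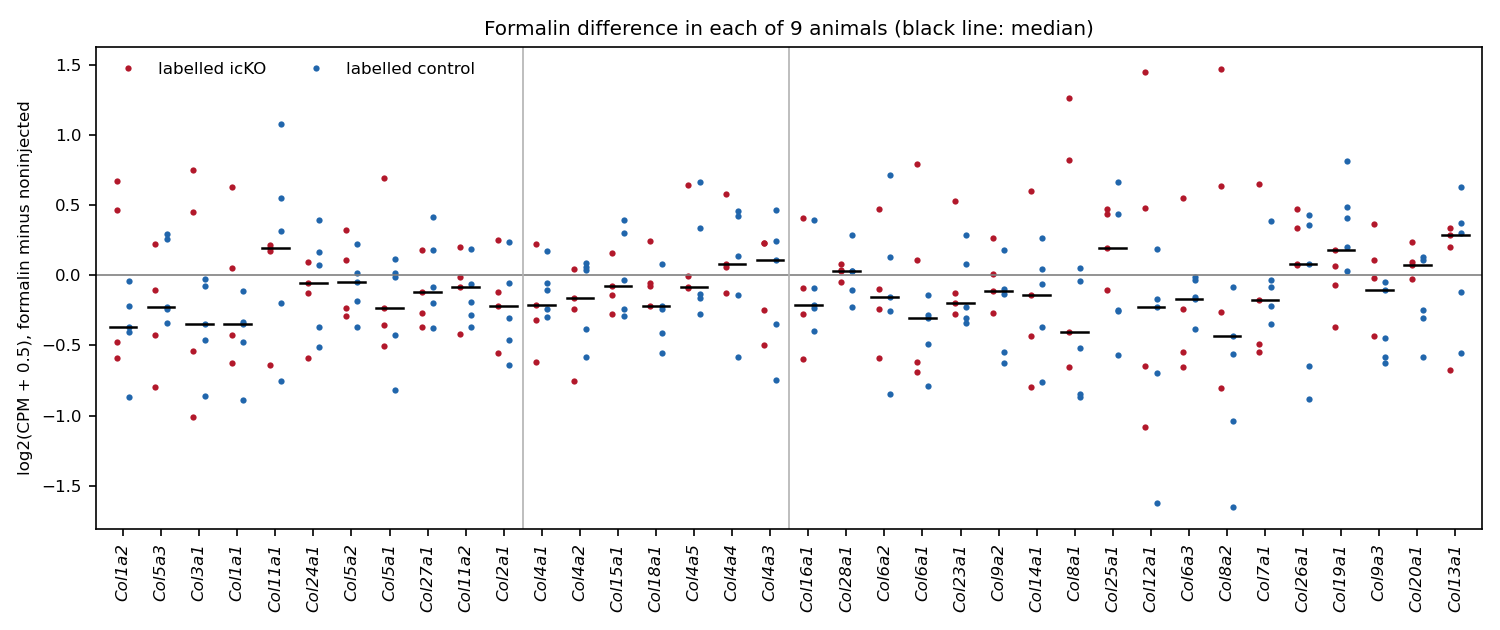
Log2 difference between the formalin and the noninjected library of the same animal for the 36 collagen genes that average at least 1 CPM, in 9 animals (0.5 CPM added before the logarithm); coloured points are animals by labelled genotype and the black line is the median. Col1a1, Col1a2 and Col3a1 lie above 0 in icKO 4 and icKO 5 and below 0 in the other 7 animals.

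Sex showed no collagen gene past the threshold either: 0 of 38 members passed in edgeR's test of 5 male against 5 female animals, where 0.0566% of all genes did, 4 members and 12% of all genes had an unadjusted p under 0.05, and DESeq2 called 0 members. Col28a1 had the smallest p, with 55.0 to 66.7 CPM in males and 67.0 to 89.2 CPM in females, so that the sexes did not overlap, as in 1.86% of all tested genes, 1.03% with lower males (log2 -0.29, SE 0.0892; edgeR adjusted p = 0.338). Col4a5 followed at a log2 difference of 0.45 (SE 0.168; edgeR adjusted p = 0.366). Of the 38 fold changes 10 were above 0, and their median was -0.13, against -0.0057 over all genes.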

How the data were processed

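The authors deposited unnormalized read counts, whole numbers for each Ensembl gene ID. The submitters' processing notes name the build GRCm39, featureCounts 2.0.1, STAR 2.7.8a and bcl2fastq 2.20.0.422. The annotation release, strand setting and handling of multiply matching reads were not given in the sources used here. Libraries were polyA-selected and not stranded, per the labels' protocols.

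Counts of the 19 libraries with over 1000000 counts were analysed, per library or summed per animal. CPM use TMM-scaled library sizes. Tests were edgeR 4.0.16 quasi-likelihood fits (robust, TMM, filterByExpr, sex as a term, and labelled genotype as a term for sex) over all genes with Benjamini-Hochberg adjustment (threshold 0.05). Simulated counts with known changes were run through the same fits, but each library was drawn independently. They therefore do not check the fits in which both libraries of an animal enter without an animal term. DESeq2 1.42.0 was an alternative (R 4.3.3, Python 3.11.15). The within-agent fit shares 1 dispersion over the libraries of the 6 agreeing animals, and neither it nor the main formalin fit has an animal term. Correlations used 100000 resamples. Transcript lengths and neighbours come from GENCODE M21 (GRCm38), promoters from RefSeq.

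Groups follow the sample titles. The members, lists and tests were chosen with earlier results of these data known, and the correlation with fibroblast markers was added after values were seen. Named with values were the 2 most abundant members of each class, members that passed, and otherwise those with the smallest p; Col12a1, Col11a1, Col27a1, Col3a1, Col8a1, Col8a2, Col4a3, Col4a5, Col4a6 and Col9a2 were chosen with their values known where that rule did not name them. The deposited names give both libraries of an animal 1 number. The correlation of their deviations was over 0.1 in 8 of 9 animals (0.209 to 0.491, and icKO 3 -0.0523), and animal as a block was an alternative. The formalin library of icKO 3 reached 0.428 with a noninjected library of another labelled icKO animal, so its pairing is uncertain. Each of the other 8 correlated most with its own. No pair of the 19 libraries agreed within sampling noise (chi-square per degree of freedom at least 6.21).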

Additional observations from a re-analysis of the deposited data

Results flagged for a closer look

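In 4 of 76 group values of named members, 1 library stood apart from the others of its group, against about 1 in 20 by chance. Col4a5 had 8.4 CPM in the control 4 formalin library, against 4.91 to 5.74 CPM in the other control formalin libraries. Col25a1, a transmembrane collagen of neurons, had 6.76 CPM in the icKO 2 noninjected library, against 10.8 to 12.4 CPM in the other icKO noninjected libraries. It also had 10.1 CPM in the control 3 formalin library, against 11.4 to 11.8 CPM in the other control formalin libraries. Col28a1 had 82.2 CPM in the control 2 formalin library, against 63.0 to 68.3 CPM in the other control formalin libraries.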

How the results depend on the processing

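Counts of collagen genes past the threshold moved with several choices, and no named value changed direction. In the agreeing animals the count was 4, and it was 0 with all animals grouped by the deposited names, 7 with DESeq2, 11 with no filter on low counts, 0 with no sex term, 7 without the icKO 5 formalin library and 0 to 5 when 1 animal was left out. The share of all genes called was 0.897%, and 1.08%, 6.15%, 5.16%, 0.179% and 7.46% in those settings. Not all these members were lower: Col12a1 was called higher with DESeq2 and without the icKO 5 formalin library. With no filter Col12a1, Col4a1, Col4a2 and Col6a3 were called higher. By label it was 0, against 1 with DESeq2 and 12 with no filter (0 to 0 with 1 animal left out, 0.382% and 2.18% of all genes). Among the 12, Col11a1, Col16a1, Col5a3 and Col7a1 were lower and the rest higher. In noninjected libraries it was 2, against 0 by the deposited names, 5 with DESeq2, 9 with no filter, 4 with only the libraries compared, 5 without the icKO 5 formalin library and 0 to 5 with 1 animal left out (4.7% of all genes, against 8.39%, 12%, 5.58%, 8.7% and 11.7%). Called higher among these were Col1a1, Col3a1, Col4a1 and Col4a2 with no filter and Col6a3 without icKO 4. In formalin libraries it was 4, against 0 by the deposited names, 8 with DESeq2, 20 with no filter, 7 with only the libraries compared and 1 to 4 with a control animal left out (9.14%, against 3.89%, 12%, 8.7% and 5.48%). Called higher there were Col12a1, Col3a1 and Col8a2 with DESeq2, and Col12a1, Col6a1, Col8a1 and Col8a2 with only the libraries compared. Among the 20 with no filter, Col11a1, Col16a1, Col24a1, Col27a1, Col4a3, Col5a3 and Col7a1 were lower and the rest higher. With no filter, counts of 0 became 1 for formalin in labelled icKO, 5 in labelled control, 3 for the interaction and 4 for sex (1.41%, 0.207%, 1.08% and 2.81% of all genes). Of the chain pairs 2 passed without the 2 farthest animals, against 8 with all animals. The cause of these shifts was not tested. With animal as a replicate block the count stayed at 0 in the formalin comparisons, as it did by label with the title number as a block (same-numbered animals correlated at -0.165 to 0.329). No paired analysis was possible because icKO and control animals with agreeing records share only number 5. The 4 lower genes kept a negative fold change in every fit run. Of the single values, 537 stayed on their side of the threshold, 112 were no longer past it and 36 became so. Col9a1, with 54 counts in all, and Col17a1 were too low to test in most fits, so a difference there was not detectable at this depth.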
